A study of Mus musculus with 2 samples.

Results

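RGS (regulator of G protein signalling) genes encode proteins that switch off signalling from G protein-coupled receptors. They were examined in cultured fibroblastic reticular cells (FRCs), the stromal fibroblasts whose network forms the scaffold of the lymph node. The 10 genes considered were Rgs1, Rgs2, Rgs3, Rgs4, Rgs5, Rgs10, Rgs12, Rgs16, Rgs17 and Rgs19, matched by symbol to probe sets annotated to a single gene. Of these, 9 were measured, by 10 probe sets, among 19751 named genes in all, and no probe set in the annotation used here named Rgs10, which was not analysed here. The members were chosen by their family and with the log2 intensities of both arrays, and so the difference of Rgs5 between them, already known, and these values are therefore a description without a test.

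The series holds 1 group of 2 arrays, called replicate 1 and replicate 2 after their titles. The cells came from lymph nodes of C57BL6/J mice that were 4 to 6 weeks old and untreated, with no allele or agent named in the labels, and were expanded for 7 to 10 days in αMEM medium with 10% fetal calf serum. The source label calls the cells purified, while the growth protocol speaks of the whole stromal fraction, and how they were purified was not stated. Whether separate animals or cultures gave the replicates is not stated in the labels, so their spread may be technical.

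A G protein-coupled receptor activates a heterotrimeric G protein by loading its alpha subunit with GTP, and the signal ends when the alpha subunit hydrolyses it. RGS proteins speed up that hydrolysis on alpha subunits of the Gi/o and Gq families and so shorten the response. The family is divided by sequence into the R4 group of small proteins (Rgs1, Rgs2, Rgs3, Rgs4, Rgs5 and Rgs16 here), the RZ group (Rgs17 and Rgs19) and the R12 group (Rgs10 and Rgs12). Rgs5 is widely used as a marker of pericytes, the contractile cells on the outside of capillaries, where it dampens the response to vasoconstrictors.

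All levels are log2 intensities, and mean ± SD values are over n = 2 arrays. A gene was counted as above background where it passed, on both arrays, the 95th percentile of 1035 olfactory receptor probe sets (7.15 on replicate 1 and 7.17 on replicate 2). A stricter limit came from 37 genes restricted to tissues such as liver, testis and retina (8.07 and 8.18). Over all named genes 67.3% passed the first limit and 50.0% the stricter one, and of the 37 tissue-restricted genes themselves 35.1% passed the first. Genes were not ranked against each other by level, because probes differ in how strongly they bind. The limits and the summed intensities do join different genes, and are rough guides for that reason. Of 13 FRC markers, 11 passed the first limit and 10 the stricter one, among them podoplanin (Pdpn, 12.67 ± 0.10), Pdgfra (11.89 ± 0.07), Pdgfrb (12.96 ± 0.22) and Thy1 (12.48 ± 0.29). Fap (5.96 ± 0.01) and Bst1 (6.56 ± 0.14) lay below both.

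Of the 9 measured Rgs members, 8 were above the first limit on both arrays and 5 above the stricter one. Rgs1 was the exception to the first count. Rgs3, Rgs12, Rgs16, Rgs17 and Rgs19 passed both limits, Rgs5 passed the stricter limit on replicate 2 only, and Rgs2 and Rgs4 passed it on neither array. The shares over all genes given above are the background for these counts.

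**Figure D1:**
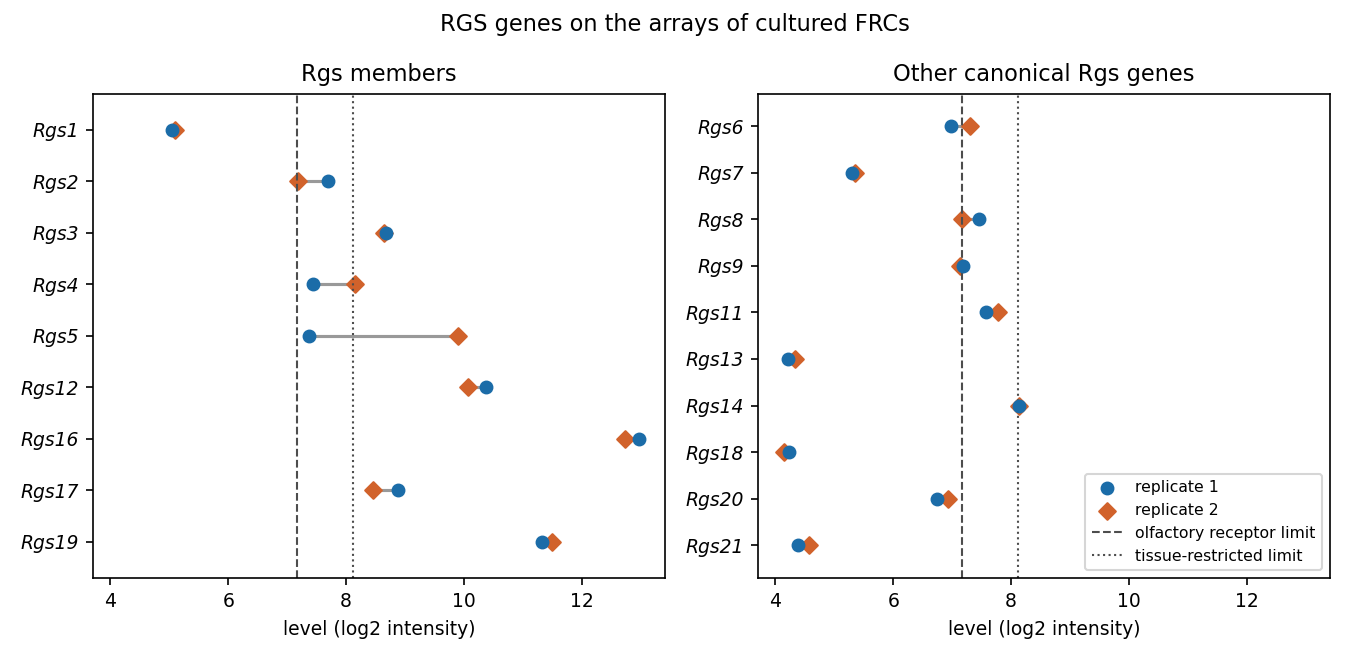
Levels (log2 intensity, x axis) of the 9 measured Rgs members (left) and of the 10 other canonical Rgs genes (right) on replicate 1 (blue circles) and replicate 2 (orange diamonds), with grey lines joining the arrays and vertical lines at the mean olfactory receptor limit (7.16) and the mean tissue-restricted limit (8.12). The widest gap is that of Rgs5, at 7.37 and 9.91. Positions of different genes along the axis are not comparable.

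Rgs5 had a level of 7.37 on replicate 1 and 9.91 on replicate 2. It was near background on the first array and well above both limits on the second. The difference, replicate 2 minus replicate 1, was 2.54 on the log2 scale, or 5.81-fold, and the mean level was 8.64 ± 1.80. With replicate 1 set to the stricter limit, since it lay below it, Rgs5 was at least 3.57-fold higher on replicate 2. Only 1 array stands on each side of this difference, so there was no replicate check. In bulk RNA, fewer cells of a type and less RNA per cell cannot be told apart.

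Differences between the arrays were counted over 13577 genes whose mean level exceeded the mean limit of 7.16. Of these, 1.41% differed 2-fold or more, with 1.05% higher on replicate 2 and 0.368% higher on replicate 1. Among the 8 Rgs members that passed this filter on level, Rgs5 alone differed 2-fold, and nothing is read from that share, since the members were listed with these values known. By the size of its difference Rgs5 ranked 13 among the genes higher on replicate 2, and 0.0958% of genes differed by more in either direction. The median absolute difference over the 13577 genes was 0.11.

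The gene Rgs4 encodes a close relative of Rgs5 that acts on Gi/o and Gq alpha subunits and is well known from neurons and smooth muscle. Its level was 7.43 on replicate 1 and 8.16 on replicate 2 (mean 7.80 ± 0.51). It lay above the first limit on both arrays and below the stricter one on both, with replicate 2 at 8.16 against a limit of 8.18. The difference of 0.72 on the log2 scale (1.65-fold) was higher on replicate 2, as for Rgs5, and 2.95% of genes differed by more. Because Rgs4 lay between the limits, no fold is given against the stricter one.

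Rgs5 and Rgs4 are neighbours on chromosome 1 of the RefSeq assembly GRCm38.p6, with 0 protein-coding genes between them. Rgs2 lies on the same chromosome in a run with Rgs13, Rgs1, Rgs21 and Rgs18, with 0 protein-coding genes between consecutive members, and Rgs8 and Rgs16 form a further adjacent pair. Of 21 Rgs genes in that assembly, Rgs22 included, 11 lie on chromosome 1. The 250 bases before the start of Rgs5 and Rgs4, the neighbours that were both higher on replicate 2, and of Rgs2, which was lower there, are shown from RefSeq with build GRCm38.p6. They are written 5′ to 3′ on the strand of the gene. Rgs5 is at chr1:169655251-169655500 on the plus strand, Rgs4 at chr1:169747643-169747892 on the minus strand and Rgs2 at chr1:144004150-144004399 on the minus strand. Capitals mark matches on either strand to the TATA motifs TATAAA and also TATATA, to the CCAAT motif or to the GC box motif GGGCGG.
Rgs5: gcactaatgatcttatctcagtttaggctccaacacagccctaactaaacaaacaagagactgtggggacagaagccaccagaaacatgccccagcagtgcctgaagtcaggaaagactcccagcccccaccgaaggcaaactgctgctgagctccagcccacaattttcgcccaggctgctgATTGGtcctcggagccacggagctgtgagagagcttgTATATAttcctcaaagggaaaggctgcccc
Rgs4: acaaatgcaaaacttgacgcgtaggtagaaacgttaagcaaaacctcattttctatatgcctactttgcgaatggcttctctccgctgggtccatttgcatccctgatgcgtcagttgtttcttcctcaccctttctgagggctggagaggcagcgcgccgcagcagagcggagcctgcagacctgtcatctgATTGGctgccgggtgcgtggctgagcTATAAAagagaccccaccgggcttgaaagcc
Rgs2: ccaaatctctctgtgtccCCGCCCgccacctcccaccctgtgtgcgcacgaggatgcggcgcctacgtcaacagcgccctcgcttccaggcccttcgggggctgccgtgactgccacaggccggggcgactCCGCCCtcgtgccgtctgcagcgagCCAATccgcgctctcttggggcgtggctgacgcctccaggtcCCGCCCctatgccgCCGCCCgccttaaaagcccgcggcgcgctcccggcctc

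The Rgs5 window held a TATATA match from 30 to 25 bases before the start and a CCAAT match, on the opposite strand, from 67 to 63 bases before it. The Rgs4 window held a TATAAA match from 31 to 26 bases and a CCAAT match on the opposite strand from 57 to 53 bases before the start. The Rgs2 window held no match to the TATA motifs, a CCAAT match from 94 to 90 bases before the start and 4 GGGCGG matches. Matches to CANNTG, which are not in capitals, numbered 0 for Rgs5, 4 for Rgs4 and 0 for Rgs2, and a CArG box, the motif of serum response factor, was found in none of the 3 windows. No matches overlapped within these windows. Of 32851 promoter windows of that length in the RefSeq table, 12.4% held TATAAA, 5.25% TATATA, 33.8% CCAAT, 32.7% GGGCGG, 66.2% CANNTG and 1.47% a CArG box. The GC content was 53.6% for Rgs5, 53.6% for Rgs4 and 72.4% for Rgs2, against a median of 52.4% over all windows. The 3 windows shown were picked by the direction of the difference, and the other members were mixed. Rgs12, Rgs16 and Rgs17, higher on replicate 1, held GGGCGG matches and no match to the TATA motifs, as Rgs2 did. Rgs19, higher on replicate 2, held no match to the TATA motifs at any start and GGGCGG matches at some. Rgs3, slightly higher on replicate 1, held TATAAA at both of its starts. No relation between motif and direction is read from them. A match is a description of letters and says nothing of a factor bound there.

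Among the other R4 genes, Rgs2 encodes a regulator with a preference for Gq that limits vasoconstrictor signalling. It was at 7.69 on replicate 1 and 7.18 on replicate 2 (mean 7.44 ± 0.36). Both values lay between the limits, and that of replicate 2 was just above its first limit of 7.17. Rgs2 differed in the opposite direction from Rgs5 and Rgs4, by -0.51 (1.42-fold higher on replicate 1), and 6.38% of genes differed by more.

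Rgs16, an inducible R4 gene whose product acts on Gi/o and Gq, had a level of 12.97 on replicate 1 and 12.73 on replicate 2 (mean 12.85 ± 0.17). Both arrays were far above both limits, and the difference was -0.24 (1.18-fold). Rgs3, whose longer products carry further domains beside the RGS domain, was at 8.68 and 8.64 as the mean of its 2 probe sets, and the arrays differed by -0.04. Those probe sets gave different pictures of Rgs3, with 7.53 and 7.62 for the first and 9.83 and 9.66 for the second, so that the first lay below the stricter limit and the second above it, and their differences had opposite signs (0.09 and -0.16). Rgs1, best known from B cells and other lymphocytes, was at 5.04 and 5.09, below both limits on both arrays.

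In the RZ group, Rgs19 (also called GAIP), which acts on Gi alpha subunits, was at 11.32 on replicate 1 and 11.50 on replicate 2 (mean 11.41 ± 0.13). The difference of 0.18 corresponds to 1.14-fold, and 30.4% of genes differed by more. Rgs17, known for its action on Gz and Gi, was at 8.87 on replicate 1 and 8.46 on replicate 2 (mean 8.67 ± 0.29). It passed both limits on both arrays and was lower on replicate 2 by -0.41 (1.33-fold higher on replicate 1). In the R12 group, Rgs12, a large protein with several domains beside the RGS domain, was at 10.38 and 10.06 (mean 10.22 ± 0.22), a difference of -0.32.

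Over the 8 members on the level filter, 3 were higher on replicate 2 (Rgs4, Rgs5 and Rgs19), against 51.2% of all 13577 genes, and 5 on replicate 1 (Rgs2, Rgs3, Rgs12, Rgs16 and Rgs17). The median difference was -0.14, beside 0.0046 over all 13577 genes, and the range ran from -0.51 to 2.54. At 1.5-fold, Rgs5 and Rgs4 were counted as higher on replicate 2 and no member as higher on replicate 1, where over all genes 4.77% differed, 2.87% being higher on replicate 2 and 1.91% on replicate 1. Rgs4 is counted on values below the stricter limit, and with both set to that limit its difference was 0.11, which ends its count at 1.5-fold.

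**Figure D2:**
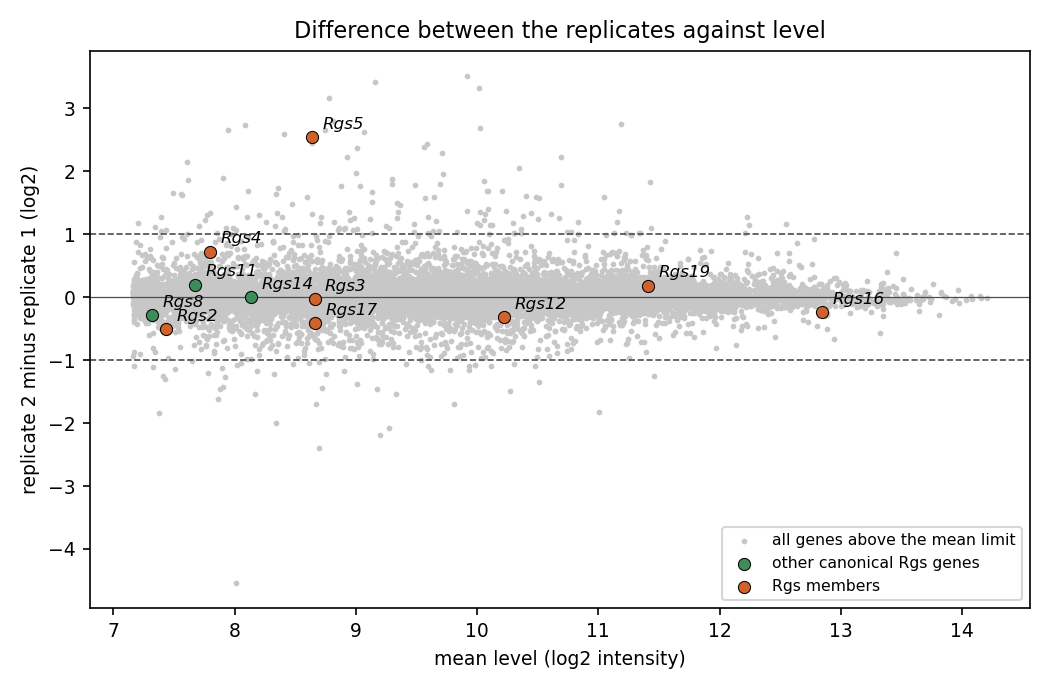
Difference between the replicates (replicate 2 minus replicate 1, log2, y axis) against the mean level (log2 intensity, x axis) for 13577 genes above the mean limit (grey), with the 8 Rgs members (orange) and the 3 other canonical Rgs genes (green) that pass it. Dashed lines mark a 2-fold difference. Rgs5 stands at 2.54 with a mean of 8.64, and the other labelled genes lie between -0.51 and 0.72.

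The 10 other canonical Rgs genes gave little signal. Above the first limit on both arrays lay 2, Rgs14 (8.14 ± 0.00), an R12 gene, and Rgs11 (7.68 ± 0.14), an R7 gene, and 0 passed the stricter limit on both. Over all genes the shares were 67.3% and 50.0%. Rgs6 (7.14 ± 0.23), Rgs8 (7.32 ± 0.20) and Rgs9 (7.16 ± 0.03) passed the first limit on 1 array, with Rgs8 at 7.46 and 7.17. Rgs7 (5.33 ± 0.03), Rgs13 (4.27 ± 0.08), Rgs18 (4.19 ± 0.06), Rgs20 (6.84 ± 0.13) and Rgs21 (4.48 ± 0.13) passed on neither. Rgs13 and Rgs18 are known from germinal centre B cells and from platelets and their precursors. None of the 3 that passed the filter on mean level, Rgs8, Rgs11 and Rgs14, differed 1.5-fold, and their range was from -0.29 to 0.20.

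By its place in the pattern between the arrays, Rgs5 had close neighbours outside the family. Likeness was measured as the gap between the log2 differences of a gene and of Rgs5 over the 2 arrays, and the 5 nearest genes are given. Adgrl4, an adhesion G protein-coupled receptor known from endothelium, was nearest with a gap of 0.05, at 7.12 on replicate 1, just below the first limit, and 9.70 on replicate 2. Adgrd1, another adhesion receptor of that class, followed with a gap of 0.08, at 7.76 and 10.37. The matricellular gene Ccn3 had a gap of 0.09 and levels of 7.41 and 9.87, and Igfbp2, which encodes an insulin-like growth factor binding protein, a gap of 0.10 and levels of 8.37 and 10.81. Cmklr1, the receptor for chemerin, had a gap of 0.11 and levels of 7.42 and 10.07. With 2 arrays this likeness says only that the differences were of like size.

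Markers of mural cells, the pericytes and smooth muscle cells of vessels, were set beside Rgs5. Of the 17 pericyte markers other than Rgs5, 13 passed the first limit and 9 the stricter one, beside 67.3% and 50.0% of all genes. Their summed intensity on the linear scale was 26044 on replicate 1 and 31623 on replicate 2. Most of that sum came from Pdgfrb (7166 and 8852), Mcam (7343 and 6766) and Cd248 (4775 and 7764), so it says little of the other markers. Of the 13 on the level filter, 10 were higher on replicate 2 and 3 on replicate 1, where 51.2% of all genes were higher on replicate 2. The median difference was 0.28, beside 0.0046 over all genes. The FRC markers leaned the same way, with 9 of 11 on the level filter higher on replicate 2 and a median of 0.13. The 2 higher on replicate 1 were Ccl19 (8.17 and 7.85) and Cxcl12 (9.96 and 9.63). Pdgfrb is on both the pericyte and the FRC list. Col1a1 and Col3a1 of the FRC list are also on the matrix list given below. Desmin (Des), an intermediate filament of muscle and pericytes, was the only one of the 13 pericyte markers to differ 2-fold, at 9.09 on replicate 1 and 10.11 on replicate 2. Over all genes 1.41% differed 2-fold. Lower differences were those of Ndufa4l2 (7.88 and 8.76), the proteoglycan gene Cspg4, which encodes NG2 (9.28 and 9.99), and Cd248, which encodes endosialin (12.22 and 12.92).

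The other 9 pericyte markers on the level filter differed by less than 1.5-fold. The receptor genes Pdgfrb (12.81 and 13.11) and Notch3 (8.70 and 9.02) were slightly higher on replicate 2, as were Tbx18 (11.38 and 11.48), Heyl (7.90 and 8.10), Anpep (7.21 and 7.49) and the channel gene Kcnj8 (7.28 and 7.38). Mcam (12.84 and 12.72), Foxs1 (9.81 and 9.74) and Cox4i2 (8.99 and 8.89) were slightly higher on replicate 1. Abcc9 (7.02 ± 0.03), the partner of Kcnj8 in a potassium channel, Higd1b (5.98 ± 0.05), Vtn (6.54 ± 0.09) and Angpt1 (5.76 ± 0.50) lay below the first limit on both arrays. Rgs5 and Ndufa4l2 were above the stricter limit on replicate 2 alone, where Pdgfrb, Mcam and Cspg4 were above it on both arrays and Abcc9, Higd1b and Vtn on neither.

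Smooth muscle markers were split evenly between the arrays. All 10 other than Rgs4 passed the first limit and 9 the stricter one, 5 were higher on each array, and their median difference was 0.06. Over all genes 67.3% and 50.0% passed these limits, and 51.2% of those on the level filter were higher on replicate 2. Smooth muscle actin, Acta2, was at 14.06 and 14.01, Tagln at 13.37 and 13.23, Cnn1 at 12.39 and 12.77, and the smooth muscle myosin Myh11 at 9.45 and 9.91. None of the 10 differed 1.5-fold, and nothing is read from that, since over all genes only 4.77% did.

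**Figure D3:**
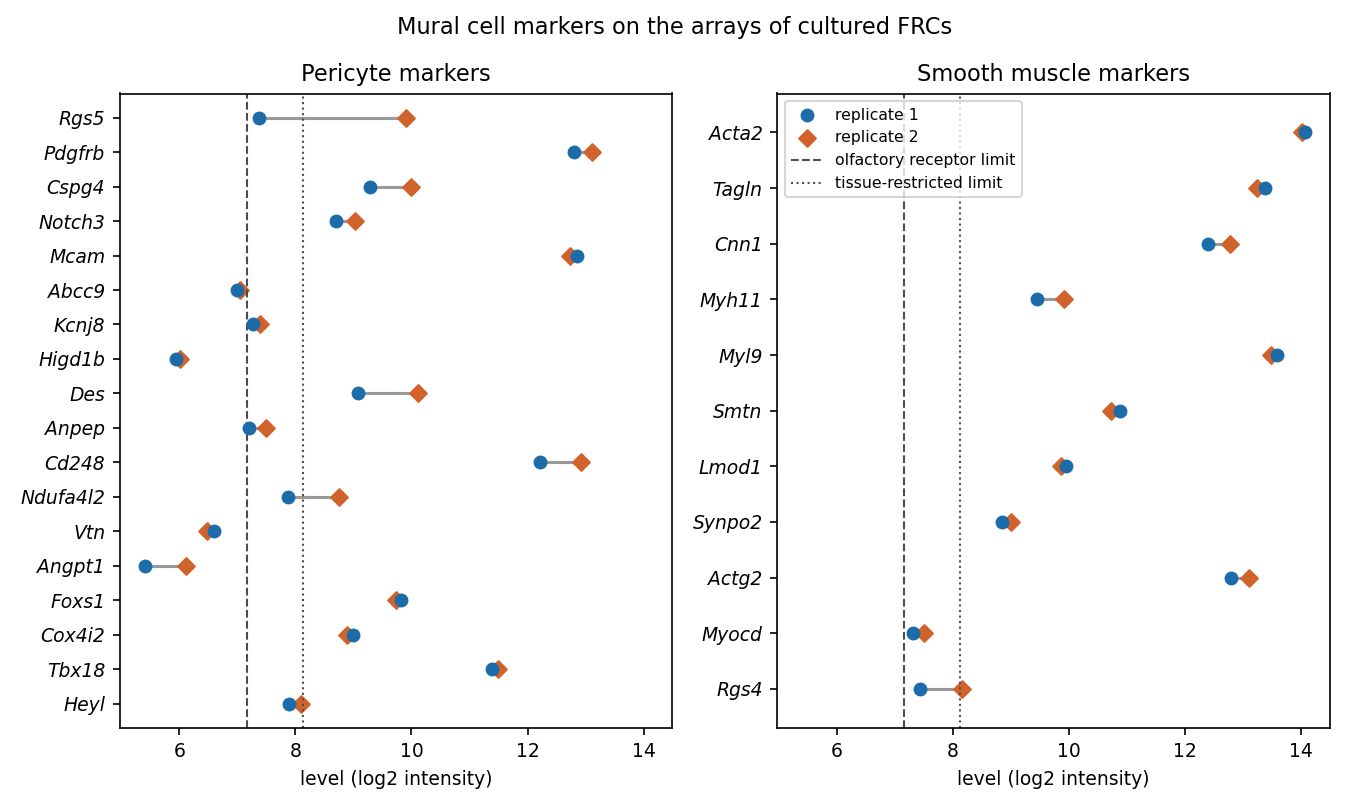
Levels (log2 intensity, x axis) of 18 pericyte markers (left, with Rgs5 at the top) and 11 smooth muscle markers (right, with Rgs4 at the bottom) on replicate 1 (blue circles) and replicate 2 (orange diamonds), with vertical lines at the mean olfactory receptor and tissue-restricted limits. Of 18 pericyte markers, Rgs5 and Des differ 2-fold, and Acta2 and Tagln show nearly coinciding symbols. Positions of different genes along the axis are not comparable.

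Other features of the cultures also differed between the arrays, some in the direction of Rgs5 and some against it. With 1 array on each side, no link to Rgs5 can be read from this. All 14 measured cell cycle genes were lower on replicate 2 (median -0.74), with Mki67 at 10.52 and 9.45, and 13 of 13 matrix genes on the level filter were higher there (median 0.92), with Col3a1 at 10.05 and 11.30. The matrix list holds genes already known to differ between these arrays. The summed intensity of 12 blood endothelial markers was 6842 on replicate 1 and 7255 on replicate 2. Of the 12, 7 passed the first limit and 3 the stricter one, beside 67.3% and 50.0% of all genes. Those 3 were Eng (11.98 and 12.17), Flt1 (10.14 and 9.79) and Egfl7 (8.47 and 8.38). Most of the sum came from Eng (4039 and 4597 on the linear scale), so it says little of the other markers. Of the 9 on the level filter, 4 were higher on replicate 2 and 5 on replicate 1, with a median of -0.04. Emcn (7.64 and 8.40) and Tek (6.93 and 7.68) were more than 1.5-fold higher on replicate 2, while Pecam1 (7.22 and 7.13) and Cdh5 (8.05 and 7.53) were lower there. Tek, Pecam1 and Cdh5 were below the stricter limit on both arrays. With replicate 1 set to the first limit Tek was 1.45-fold higher on replicate 2. With replicate 1 set to the stricter limit Emcn was 1.26-fold higher. The sum over 6 lymphatic endothelial markers was 973 and 885, and 2 passed the first limit and 0 the stricter one. These were Itga2b (8.13 and 8.11) and Flt4 (8.41 and 7.79), which was 1.53-fold higher on replicate 1, while Prox1 (6.44 and 6.40) lay below both limits. The sum over 15 leukocyte markers was 3693 and 3922, and 6 passed the first limit and 2 the stricter one, Cd53 (10.67 and 10.75) and Cd68 (9.09 and 8.96). That sum leaned on Cd53 (1628 and 1726) and Lyz2 (139.5 and 343.7) on the linear scale. Of the 7 on the level filter, 4 were higher on replicate 2 and 3 on replicate 1. Lyz2, the lysozyme gene of myeloid cells, was 2.46-fold higher on replicate 2 (7.12 and 8.43), or 1.28-fold with replicate 1 set to the stricter limit. The pan-leukocyte gene Ptprc (6.41 and 6.47) lay below both limits. The part of any of these features in the difference of Rgs5 was not tested. Housekeeping genes had a median difference of -0.01 over 8 genes.

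G protein alpha subunit genes, some outside the Gi/o and Gq families on which RGS proteins act, were also examined. Of 15 measured, 11 passed the first limit and 8 the stricter one. Over all genes 67.3% and 50.0% did, which is also the background for the counts above the limits in the lists below. None of the 13 on the level filter differed 1.5-fold, and nothing is read from that, since over all genes only 4.77% did. That share is also the background for the counts at 1.5-fold below. The Gi genes Gnai2 (12.98 and 12.98) and Gnai3 (11.78 and 11.81) hardly moved, and Gnai1 was at 9.79 and 9.48. Gnao1 was at 9.56 and 9.38, while Gnaz, which encodes the Gz subunit on which Rgs17 acts, was near the first limit at 7.25 and 7.23. The Gq genes Gnaq (11.84 and 11.90) and Gna11 (11.82 and 11.80) passed both limits, and Gna14 and Gna15, more restricted members of that group, passed the first limit on 1 array each. Gna12 (12.16 and 12.16) and Gna13 (11.85 and 11.79) also passed both limits, and Gnal (6.47 ± 0.12) passed neither.

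Of 17 beta and gamma subunit genes, 14 passed the first limit and 11 the stricter one, with Gnb1 at 13.68 and 13.70, Gnb2 at 12.35 and 12.34, Gnb4 at 10.60 and 10.43 and Gnb3 at 7.25 and 7.30. The widest difference among them was that of Gng2 (9.95 and 9.50). Gnb5, the beta subunit that pairs with RGS proteins of the R7 group, was at 10.36 and 10.30, above both limits, while of its R7 partners Rgs6, Rgs7, Rgs9 and Rgs11 only Rgs11 was above the first limit on both arrays and none above the stricter one. Among 10 genes for R7 anchors, guanine nucleotide dissociation inhibitors of the GoLoco type and alpha subunit chaperones, 6 passed the first limit. Gpsm1 was at 9.01 ± 0.06 and Rgs9bp at 8.14 ± 0.02, and Rgs7bp (6.56 ± 0.05) and Gpr158 (6.16 ± 0.08) lay below.

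Genes with an RGS domain outside the canonical family include receptor kinases, sorting nexins and Axin. Of 15 measured, 11 passed the first limit and 10 the stricter one, and 0 of the 11 on the level filter differed 1.5-fold, with a range from -0.11 to 0.33. Axin1, a scaffold of the Wnt pathway, was at 10.06 ± 0.02 and Axin2 at 7.71 ± 0.01. Rgs22 (6.76 ± 0.01) and the retinal kinase gene Grk1 (6.82 ± 0.06) were below the first limit.

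Receptors were the signalling list with the widest spread. Of 43 measured genes for receptors that couple largely to Gq, Gi or Gs, 33 passed the first limit and 17 the stricter one. Of the 35 on the level filter 18 were higher on replicate 2 and 17 on replicate 1, and the median difference was 0.0007. A 2-fold difference was seen for 3, all higher on replicate 2, where 1.41% of all genes differed 2-fold in either direction. These were Cmklr1, described above, the thromboxane receptor gene Tbxa2r (8.27 and 9.62) and the vasopressin receptor gene Avpr1a (7.37 and 8.48). With replicate 1 set to the stricter limit Avpr1a was 1.33-fold higher, which leaves 2. At 1.5-fold 4 were higher on replicate 2 and 3 on replicate 1. The fourth of those higher on replicate 2 was the protease-activated receptor gene F2rl2 (7.27 and 8.18), at 1.08-fold with replicate 1 set to the stricter limit.

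The 3 higher on replicate 1 were the sphingosine phosphate receptor gene S1pr1 and 2 serotonin receptor genes. S1pr1, which couples to Gi, was at 10.32 on replicate 1 and 9.39 on replicate 2. Htr1b, also Gi-coupled, was at 11.83 and 10.96, and the Gq-coupled Htr2a at 12.51 and 11.76. All 3 passed both limits on both arrays. The thrombin receptor gene F2r was at 12.60 and 12.89, S1pr3 at 12.33 and 12.59 and S1pr2 at 10.71 and 10.67. The angiotensin receptor gene Agtr1a (7.16 and 7.34) was at the first limit, and the endothelin receptor gene Ednrb (6.71 and 6.87) was below it. These receptor genes include several whose signals RGS proteins are known to dampen in vessel walls.

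Effectors downstream of the G proteins showed 1 difference of 1.5-fold among 20 genes on the level filter. The adenylyl cyclase gene Adcy7 was at 9.34 on replicate 1 and 10.02 on replicate 2, and the median over the list was 0.07. Among phospholipase C beta genes, which Gq activates, Plcb3 (11.35 and 11.23) and Plcb4 (10.05 and 10.33) passed both limits, Plcb1 (7.73 and 7.69) the first, and Plcb2 (6.85 and 6.77) neither.

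Rgs4, Rgs5 and Rgs16 proteins are known substrates of the N-degron pathway, in which an amino-terminal cysteine is exposed by methionine aminopeptidase, oxidised by the dioxygenase Ado, arginylated by Ate1 and recognised by ubiquitin ligases such as Ubr1 and Ubr2. All 6 measured genes of that pathway passed both limits, where 50.0% of all genes passed the stricter one. Ado was at 10.56 and 10.49, Metap1 at 11.82 and 11.70, Metap2 at 10.85 and 10.90, Ate1 at 11.21 and 11.21, Ubr1 at 9.49 and 9.57 and Ubr2 at 9.12 and 9.09. Their differences ran from -0.12 to 0.08, with a median of -0.01. Proteins were not measured in this series.

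**Figure D4:**
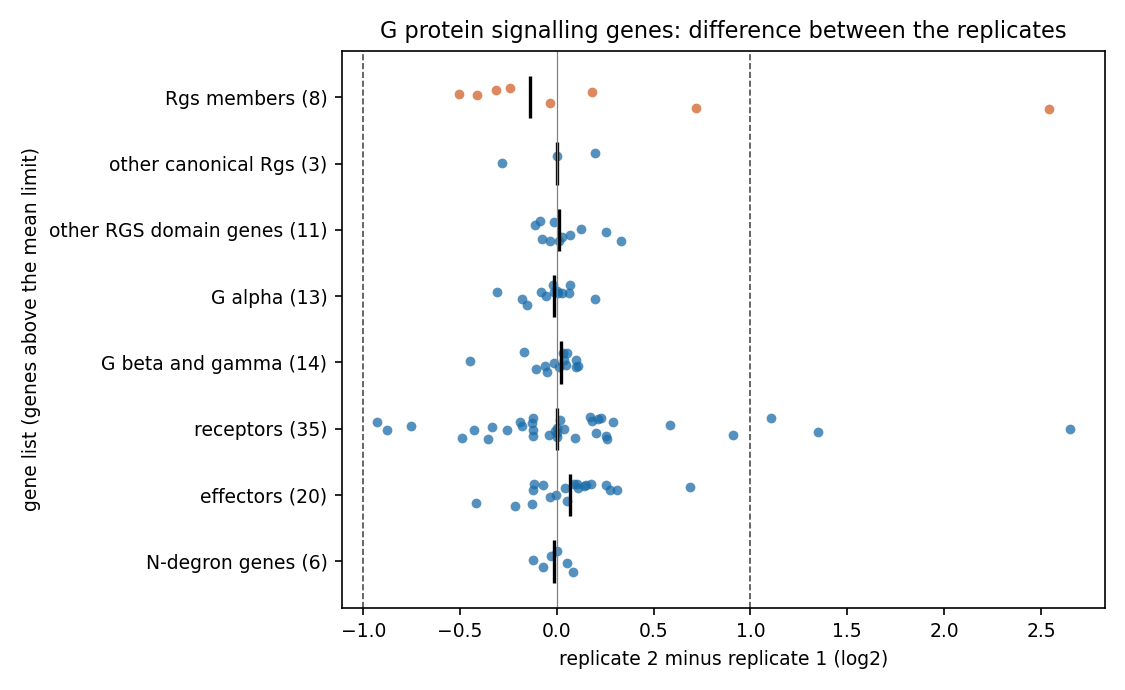
Difference between the replicates (replicate 2 minus replicate 1, log2, x axis) for each gene above the mean limit, by gene list (y axis, number of genes in brackets). Points are genes, shifted vertically at random for visibility, black bars are list medians and dashed lines mark a 2-fold difference. Among the 8 lists plotted, Rgs5 at 2.54 and the receptor gene Cmklr1 at 2.65 lie farthest to the right.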

How the data were processed

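Gene expression was measured on 2 arrays of cultured FRCs. The deposited table holds linear intensities, 1 for each probe set on each array. They were processed with RMA, the robust multi-array average, version not stated, according to the submitters' processing notes. RMA subtracts background, normalises by quantiles and compresses differences at low signal. The genome build and the arrays normalised together are not given in the sources used here. Only probe sets that the platform annotation gives to 1 gene were used, 21354 of 24679. Of the rest, 1275 name several genes and 2050 are not listed there. Identifiers of 21277 probe sets were found in RefSeq GRCm38.p6, and 0 symbols changed.

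Log2 intensities were averaged over the probe sets of a gene with Python 3.11.15 and pandas 2.3.3, and a loess trend (span 0.3) was fitted with statsmodels 0.14.6. With 1 group and no second condition no test was run. The number of arrays, 2, limits the precision. Alternatives were other limits and percentiles, other probe set choices, normalisations, filters and folds, and each array left out. The counting was tested on simulated data, with differences planted only in genes well above the first limit, so genes near it were not covered.

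The members and lists were chosen with earlier results of these data known. The rule named all Rgs genes and pericyte markers, up to 4 genes per list in written order, genes above the stricter limit with a 1.5-fold difference, and the 5 genes nearest to Rgs5. Fap, Bst1, Ccl19, Cxcl12, Gnaz, Gna14, Gna15, Gna13, Gnb5, Gng2, Gnal, Ubr1, Ubr2, S1pr2, S1pr3 and Avpr1a and the markers of endothelium and leukocytes named fall outside it in part and were chosen after their values were seen.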

Additional observations from a re-analysis of the deposited data

How the results depend on the processing

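Of 9 measured Rgs members, 8 passed the olfactory receptor limit on both arrays, and 5 did with the limit from tissue-restricted genes and 5 with the 99th percentile, Rgs2, Rgs4 and Rgs5 being the members lost in both cases. The count was 8 without replicate 1 and 8 without replicate 2, and 8 under the other alternatives run. At 1.5-fold, 2 members differed in place of 1, and 8 signalling genes in place of 3. The count of signalling genes at 2-fold was 2 with values below the tissue-restricted limit set to it. Rgs5 remained past 2-fold under 8 of 8 alternatives for its difference, from 1.84 to 2.54. Some of these could not change it, or only slightly. Rgs5 has 1 probe set, so the probe set choices had no effect. It lay above the first limit on both arrays, so setting low values to that limit had none either. The median difference over all genes was only 0.0046, so quantile normalisation, median centring and loess trend removal could change it little. Each gave 2.53. Adding 64 to each intensity gave 2.16, and setting low values to the tissue-restricted limit gave 1.84. With values below the tissue-restricted limit set to it, Rgs1, Rgs2 and Rgs4 each differed by 0.11, which is the gap between the limits of the arrays, and this turned the sign for Rgs2. The sign for Rgs3 depended on its probe set (0.09 and -0.16). Leaving out an array leaves no difference between arrays to compute. The pericyte list without Rgs5 and the single Rgs3 probe sets were added after seeing the data. No paired analysis was possible because the series has 1 group.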
